A study of Homo sapiens with 7 samples.

Results

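The 40 genes described here encode proteins that carry a cell into, through and out of mitosis, from the kinases that start it to the proteins that cut the daughter cells apart. The names were given as a list, and each gene was read through the probe set with the highest mean signal over the 7 arrays among those annotated to its symbol alone. All 40 were measured, of 19775 genes with such a probe set. The arrays profiled stable lines made from Panc1, a human pancreatic cancer cell line. One arm of the study carried pcDNA3.1/S100P-V5-His, meant to overexpress the calcium-binding protein S100P, and the other carried the empty pcDNA3.1/V5-His vector. The stated aim was to find genes regulated by S100P.

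The arm labelled S100P overexpressing held clone 1 and clone 5, each with an a and a b array (4 arrays). The vector control arm held clone V3, with an a and a b array, and clone V1, with a single array (3 arrays). Each line was grown from 1 cell, so an arm rests on 2 clones, and the 2 arrays of a clone are not independent samples of an arm. All lines were kept in DMEM with fetal bovine serum and were harvested before full confluence. Nothing in the labels says whether a and b arrays came from separate cultures, so their spread may be technical. The description of V1 has another prefix (SB) than that of the other arrays (PANC1), and the labels do not say what it marks.

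Mitosis begins when CDK1, bound to cyclin B, is switched on by CDC25 phosphatases and supported by polo-like and Aurora kinases. Chromosomes then attach to spindle microtubules through kinetochores, and the spindle checkpoint holds back the anaphase-promoting complex until every chromosome is attached. Most of these genes are transcribed mainly in late S, G2 and M phase, through repression by the DREAM complex in resting cells and activation by B-MYB and FOXM1 in dividing ones. The promoter elements known for this timing are the cell cycle genes homology element (CHR), searched as TTTGAA and as its variant with a central CG (TTCGAA), and the CCAAT box bound by NF-Y. In RNA from whole cultures, fewer dividing cells and less of these RNAs in each dividing cell cannot be told apart.

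The promoters of 6 members are shown because these genes lead their role groups in the difference between arms and hold a CHR-type match, which most members with a promoter entry share. They are RefSeq sequences of build GRCh38.p14, each from 100 bases before to 50 bases after the annotated start. Matches to the CHR letters given above and to CCAAT, on either strand, are in capitals. NDC80, a kinetochore gene, lies at chr18:2571457-2571606 (plus strand).
NDC80: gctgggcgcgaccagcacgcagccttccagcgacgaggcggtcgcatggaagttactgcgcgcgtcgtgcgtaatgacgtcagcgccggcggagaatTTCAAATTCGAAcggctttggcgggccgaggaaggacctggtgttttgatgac
PLK1, an entry kinase, lies at chr16:23678789-23678938 (plus strand).
PLK1: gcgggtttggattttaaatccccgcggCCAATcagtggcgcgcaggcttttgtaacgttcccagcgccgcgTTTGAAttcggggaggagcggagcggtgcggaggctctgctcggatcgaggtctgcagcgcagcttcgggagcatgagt
DLGAP5, a spindle gene, lies at chr14:55191536-55191685 (minus strand) and is written along its own strand.
DLGAP5: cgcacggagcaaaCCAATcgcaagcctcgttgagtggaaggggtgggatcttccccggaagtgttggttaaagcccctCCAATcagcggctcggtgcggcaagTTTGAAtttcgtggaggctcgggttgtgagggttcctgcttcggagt
CDCA8, of the chromosomal passenger complex, lies at chr1:37692416-37692565 (plus strand).
CDCA8: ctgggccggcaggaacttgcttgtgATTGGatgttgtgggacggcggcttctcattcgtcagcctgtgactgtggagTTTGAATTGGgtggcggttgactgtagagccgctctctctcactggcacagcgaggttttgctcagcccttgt
BUB1B, a checkpoint gene, lies at chr15:40160969-40161118 (plus strand).
BUB1B: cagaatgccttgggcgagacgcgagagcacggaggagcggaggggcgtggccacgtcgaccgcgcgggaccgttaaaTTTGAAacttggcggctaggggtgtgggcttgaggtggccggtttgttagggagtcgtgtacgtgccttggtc
CDC20, which activates the anaphase-promoting complex, lies at chr1:43358881-43359030 (plus strand).
CDC20: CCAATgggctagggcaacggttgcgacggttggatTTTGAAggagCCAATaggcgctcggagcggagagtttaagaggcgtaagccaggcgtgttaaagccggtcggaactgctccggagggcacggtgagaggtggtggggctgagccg

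The CHR-type match began 29 bases before the start in PLK1 and 23 bases before it in both CDCA8 and BUB1B. It began 65 bases before the start in CDC20 and at base 4 after it in DLGAP5. NDC80 held 2 adjoining matches, 1 of which spans the start itself. In CDCA8 the last base of the CHR-type match is also the first base of an ATTGG match. NDC80 and BUB1B (2 of the 6) held no CCAAT match in the printed stretch. PLK1 held 1 such match, and DLGAP5, CDCA8 and CDC20 held 2 each.

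Promoter entries were found for 33 of the 40 members (43 entries); AURKA, FOXM1, BUB3, TTK, TPX2, BIRC5 and UBE2C were not matched. In the window from 250 bases before to 50 after the start, 25 of the 33 genes (75.8%) held a CHR-type match. The same held for 19.5% of the 27305 genes in the promoter table. Within 50 bases of the start the match was present in 22 members (66.7%) and in 6.24% of all genes. Of the 34 DNA replication and G1/S genes with an entry, 2 (5.88%) held it in the wider window and 0 within 50 bases. A CCAAT match stood in 27 members (81.8%), in 58.8% of the replication genes and in 39.7% of all genes. These are matches of letters, given as a description; whether any factor bound there was not measured.

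The deposited values were log2 signals with array medians between 4.51 and 4.58. Arrays of 1 clone correlated at 0.996 to 0.998 over all probe sets, and arrays of different clones at 0.982 to 0.995. V1 stood farthest apart, at 0.982 to 0.990 against the others. The probe set for S100P itself did not separate the arms. It read 5.80 and 5.95 in clone 1, 5.36 and 5.45 in clone 5, 5.65 and 6.01 in V3, and 4.65 in V1 (difference 0.27, SE 0.32, limma adjusted p = 0.846). Whether it reads the RNA made from the vector is not known here, so the arms are named by their labels. KRT8, KRT18, KRT19, EPCAM, CDH2 and VIM, 6 of 8 markers listed for the line, were above 6 on all arrays. Their levels differed between clones. CDH1, which encodes E-cadherin, read 7.79 and 7.66 in clone 1, 7.36 and 7.37 in clone 5, 6.17 and 6.36 in V3, and 3.83 in V1, where it was called lower than in V3. The keratin KRT8 read 10.63 and 10.59 in clone 1 but 12.30 and 12.55 in V3, and was called lower in clone 1. The part of these differences in the results was not tested. Of the markers of other cells, 0 of 5 acinar, 0 of 4 leukocyte, 0 of 6 endothelial and 1 of 6 fibroblast genes (COL1A1) were, and the summed fibroblast level ran from 25.8 to 27.6 on the S100P arrays and from 25.4 to 26.5 on the vector arrays.

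The mitotic genes followed a common pattern across the clones, in which the clones of 1 arm stood apart from each other. Relative to each gene's own mean over the 7 arrays, the median member stood at -0.31 and -0.34 on the clone 1 arrays. For clone 5 it stood at 0.01 and 0.04, for V3 at -0.08 and 0.07, and for V1 at 0.60. Clone 1 was therefore low, V1 high, and clone 5 and V3 lay between them at nearly the same level.

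**Figure D1:**
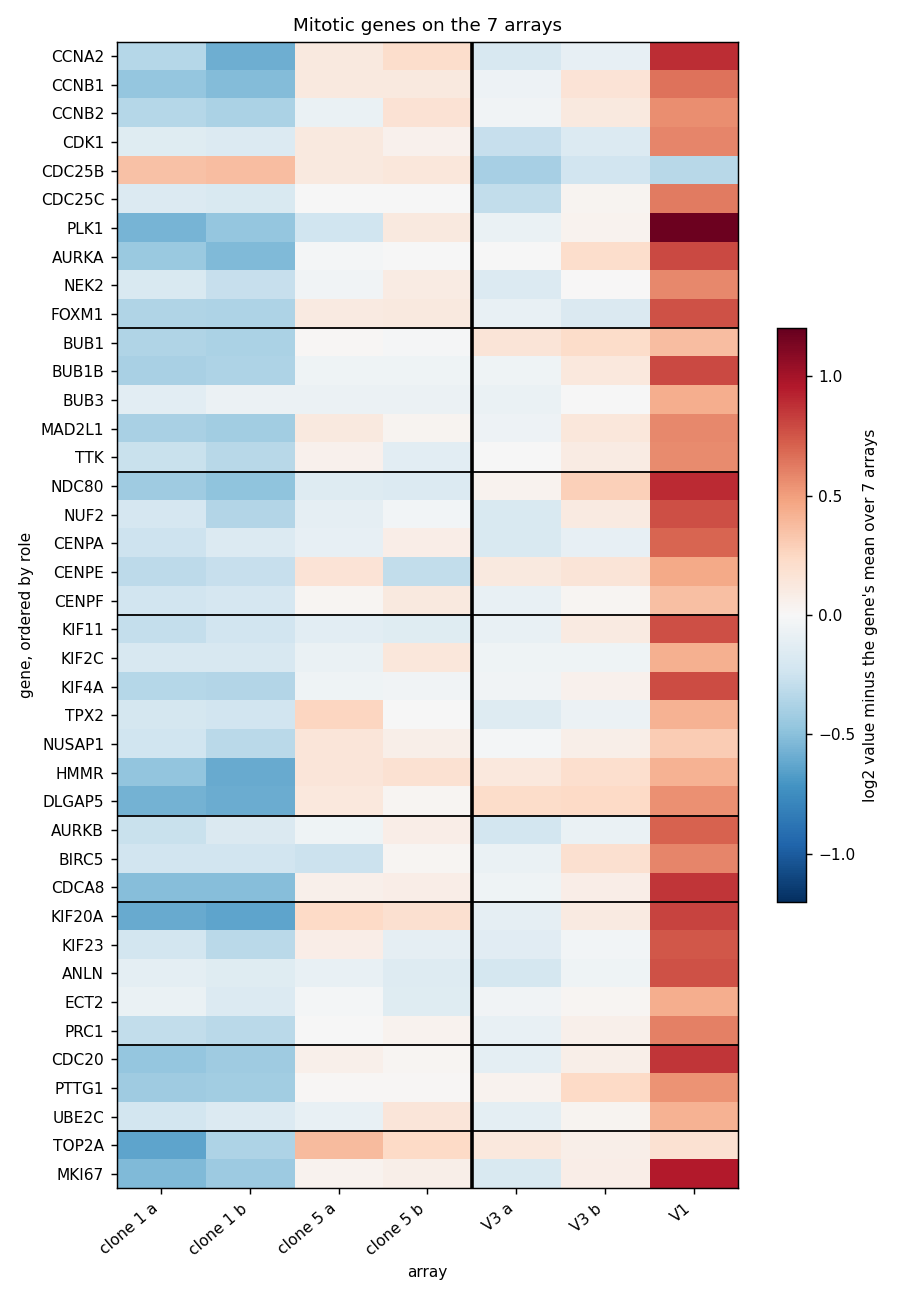
Log2 value of each of the 40 mitotic genes minus its own mean over the 7 arrays, with arrays in columns and genes in rows ordered by role (rules between roles, a heavy line between the S100P arm on the left and the vector arm on the right). The V1 column is the reddest in 38 rows and the clone 1 columns are the bluest in 30, with CDC25B running the other way.

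The single V1 array was the highest of the 7 for 38 of the 40 members, against 23.3% of all genes. Both clone 1 arrays were the lowest for 30 members, against 11.0% of all genes, and both statements held for 29 members, against 5.02%. Among the 5739 genes whose mean was at least that of the lowest member (7.83), those shares were 27.9%, 14.1% and 8.75%. By clone mean the order was clone 1, V3, clone 5, V1 in 21 members and clone 1, clone 5, V3, V1 in 16. CDC25B, CDK1 and TOP2A had orders of their own.

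Individual members followed the shared pattern closely. The mean of the members was 9.35 and 9.34 in clone 1, 9.69 and 9.70 in clone 5, 9.59 and 9.72 in V3, and 10.28 in V1. Over the 7 arrays 31 of the 40 members correlated with this mean at r above 0.9, a description in which each member is part of the mean. PRC1, which bundles the microtubules of the central spindle, was the closest at r = 0.999. TOP2A (r = 0.65) and CDC25B (r = -0.68) were the farthest.

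Between the arms, no mitotic gene passed the test, although nearly all had lower values on the S100P arrays. The log2 difference, S100P arm minus vector arm, was below 0 for 39 of the 40, with a median of -0.41 against -0.00 over all genes. It ran from -0.76 for NDC80 to 0.56 for CDC25B. At an adjusted p of 0.05 in limma, with the clone as a random block, 0 of 40 members were called, while 1.55% of all genes were (1.86% of those with a signal at least that of the lowest member). At an unadjusted p under 0.05 the count was 13 of 40, where 15.1% of all genes and 23.0% of those of like signal were under it. The members share 1 pattern, so these are not 40 separate observations: they rest on the same 4 clones.

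In 7 members every S100P array lay below every vector array: AURKA, BUB1, BUB1B, NDC80, KIF11, DLGAP5 and PTTG1. That separation was seen in 5.51% of all genes. In 1 member, CDC25B, every S100P array lay above every vector array, as in 8.67% of all genes. The size of the arm difference depended on which clones were used. Without the V1 array the median was -0.17, with 32 members below 0 and 8 above, and 1 member (CDC25B) was called. Without clone 1 the median was -0.11, with 0 called. Without the V3 arrays, where V1 alone stands for the vector arm and is assumed to vary like the rest, it was -0.75, and ANLN, BUB3, CDC25C, KIF11, NDC80 and NUF2 were called lower. Without clone 5, where clone 1 alone stands for the S100P arm, BUB1, DLGAP5, HMMR and TOP2A were called lower and CDC25B higher. In each fit without a whole clone, an arm rests on a single clone, so such calls are not effects of the arm.

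**Figure D2:**
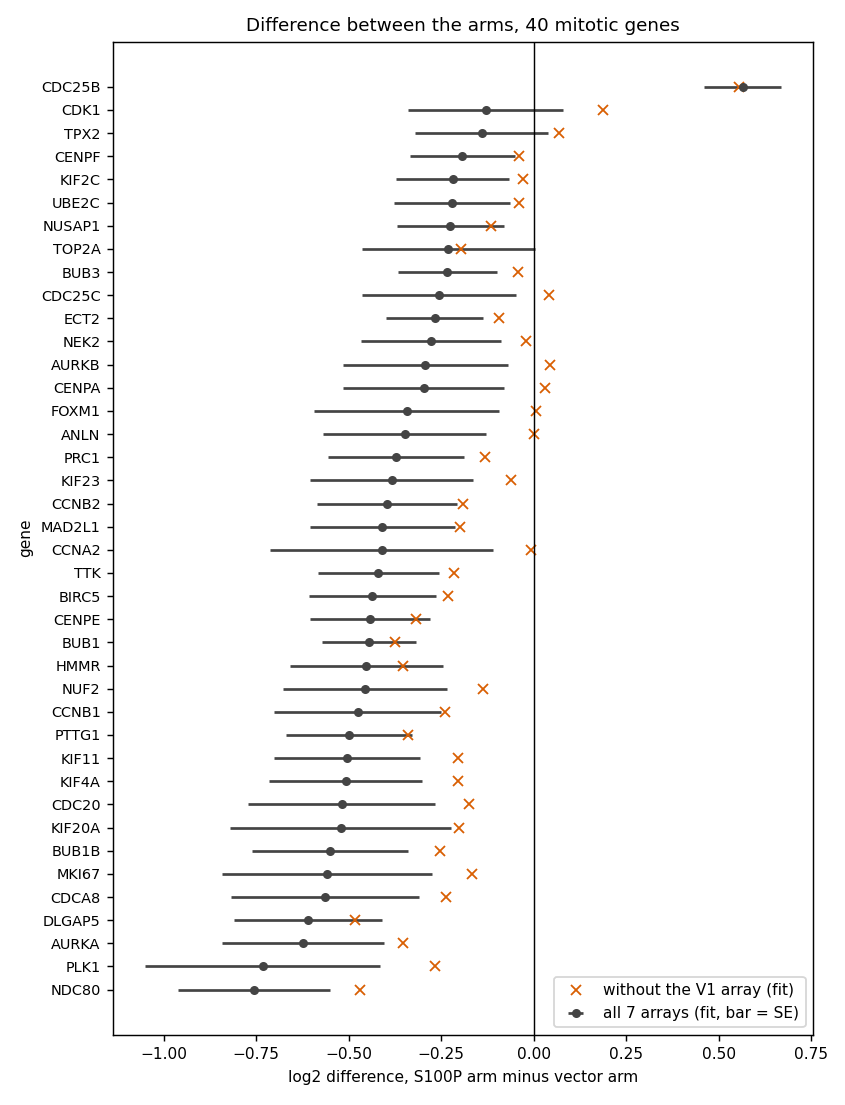
Log2 difference between the arms (S100P minus vector) for each of the 40 mitotic genes, sorted by size, from the limma fit on all 7 arrays (circles, bars are 1 SE) and from the same fit without the V1 array (crosses). With all arrays 39 circles lie left of 0; without V1 the crosses move toward 0 and 8 lie to its right, while CDC25B stays near 0.56.

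The 10 entry kinases and regulators had a median arm difference of -0.37, with 9 below 0 and 0 called. PLK1, the polo-like kinase that acts from centrosome maturation to cytokinesis, stood at 8.25 and 8.36 (clone 1), 8.58 and 8.94 (clone 5), 8.74 and 8.86 (V3), and 9.99 (V1). Clone 5 and V3 overlapped, and V1 alone stood more than 1 log2 unit above every other array. Its arm difference was -0.73 (SE 0.32, limma adjusted p = 0.417). AURKA, the Aurora kinase of centrosomes and spindle poles, read 10.03 and 9.94 in clone 1, 10.45 and 10.47 in clone 5, 10.47 and 10.68 in V3, and 11.26 in V1. Its arms did not overlap, by a narrow margin between clone 5 and V3, and the difference was -0.62 (SE 0.22, limma adjusted p = 0.296).

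CDK1, the kinase that drives entry, had clone 1 values of 10.00 and 9.99, clone 5 values of 10.27 and 10.20, V3 values of 9.87 and 9.99, and 10.74 in V1. Here V3, not clone 1, was lowest by clone mean, and the arm difference of -0.13 (SE 0.21) became 0.19 without V1. CDC25B, a phosphatase that activates CDK1, stood at 10.84 and 10.87 (clone 1), 10.61 and 10.63 (clone 5), 10.09 and 10.27 (V3), and 10.16 (V1). It was chosen for full values after they were seen, as the one member whose arm difference was above 0. The S100P arrays were all above the vector arrays, by 0.56 (SE 0.11, 1.48-fold, limma adjusted p = 0.0504). That p lay just over the threshold and passed it without the clone block (0.0266), after repeated quantile normalization (0.0380) and without V1 (0.0472). The fit without the clone block takes the arrays of a clone as independent, which they are not. CDC25B did not pass with clone means as samples, with genes of mean under 6 left out or with array medians set equal.

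The other entry genes lay between these. Cyclins A2, B1 and B2, which bind and direct CDK1 and CDK2, had arm differences of -0.41 (CCNA2), -0.48 (CCNB1) and -0.40 (CCNB2). CDC25C, the second CDC25 phosphatase of the list, differed by -0.26, in the direction opposite to CDC25B. NEK2, a kinase that separates centrosomes, differed by -0.28, and FOXM1, the transcription factor of G2 and M phase genes, by -0.34.

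The 5 spindle checkpoint genes had a median arm difference of -0.42, with 0 called. BUB1B, which encodes the checkpoint protein BUBR1, had clone 1 values of 9.34 and 9.36, clone 5 values of 9.67 and 9.67, V3 values of 9.68 and 9.85, and 10.52 in V1. The arms did not overlap, with clone 5 just under V3, and the difference was -0.55 (SE 0.21, limma adjusted p = 0.344). BUB1, a checkpoint kinase, stood at 9.07 and 9.05 (clone 1), 9.44 and 9.41 (clone 5), 9.58 and 9.64 (V3), and 9.80 (V1). Its difference was -0.45 (SE 0.13, limma adjusted p = 0.185), and -0.37 without V1.

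BUB3, which brings BUB1 and BUBR1 to kinetochores, read 11.27 and 11.33 in clone 1, 11.33 and 11.33 in clone 5, 11.32 and 11.39 in V3, and 11.84 in V1. The other 6 arrays were nearly equal and V1 alone stood above them, giving an arm difference of -0.23 (SE 0.13, limma adjusted p = 0.581). MAD2L1, which encodes the checkpoint inhibitor MAD2, differed between arms by -0.41, and TTK, which encodes the checkpoint kinase MPS1, by -0.42.

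The 5 kinetochore genes had a median arm difference of -0.44, and again 0 were called. NDC80, the microtubule-binding subunit shown above with its promoter, had clone 1 values of 7.76 and 7.70, clone 5 values of 8.03 and 8.02, V3 values of 8.23 and 8.47, and 9.08 in V1. It had the largest arm difference of the 40 members, -0.76 (SE 0.21, 1.69-fold lower, limma adjusted p = 0.163). Its arrays lay in the order clone 1, clone 5, V3, V1 with no overlap between any pair of clones. NUF2, its partner in the same complex, stood at 7.97 and 7.83 (clone 1), 8.06 and 8.14 (clone 5), 7.99 and 8.29 (V3), and 8.95 (V1). The difference was -0.46 (SE 0.22, limma adjusted p = 0.481), and V3 overlapped clone 5, while both clone 1 arrays lay below it.

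CENPF, a large protein of the outer kinetochore, read 10.55 and 10.58 in clone 1, 10.80 and 10.89 in clone 5, 10.69 and 10.80 in V3, and 11.14 in V1. Its arm difference was -0.19 (SE 0.14), and clone 5 lay at or above V3. CENPA, the histone H3 variant that marks centromeres, differed by -0.30, and CENPE, a kinetochore motor, by -0.44. CENPE had the largest gap between the arrays of 1 clone, 8.80 and 8.35 on clone 5.

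The 7 spindle motors and microtubule binders had a median arm difference of -0.45, with 0 called. DLGAP5, which binds and stabilises kinetochore microtubules, had clone 1 values of 8.80 and 8.77, clone 5 values of 9.50 and 9.39, V3 values of 9.59 and 9.61, and 9.92 in V1. Clone 1 alone lay far from the rest, and the arm difference was -0.61 (SE 0.20, limma adjusted p = 0.26). KIF4A, a chromosome-bound kinesin, stood at 9.07 and 9.06 (clone 1), 9.36 and 9.37 (clone 5), 9.37 and 9.47 (V3), and 10.19 (V1). Clone 5 and V3 all but coincided, and the difference was -0.51 (SE 0.21, limma adjusted p = 0.38).

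TPX2, which activates AURKA on the spindle, read 11.67 and 11.65 in clone 1, 12.14 and 11.87 in clone 5, 11.72 and 11.81 in V3, and 12.30 in V1. Clone 5 exceeded V3 on both arrays, and the arm difference was -0.14 (SE 0.18). KIF11, the motor that pushes spindle poles apart, differed by -0.50, and its arms did not overlap. KIF2C, a microtubule depolymerase, differed by -0.22, NUSAP1, a microtubule bundler, by -0.23, and HMMR, a spindle assembly factor, by -0.45.

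The 3 chromosomal passenger genes had arm differences between -0.56 and -0.29, with 0 called. CDCA8, which encodes borealin, had clone 1 values of 8.83 and 8.83, clone 5 values of 9.40 and 9.42, V3 values of 9.29 and 9.42, and 10.19 in V1. Its pattern is the shared one in full, with clone 1 low, V1 high and the other clones together (difference -0.56, SE 0.25, limma adjusted p = 0.44). BIRC5, which encodes survivin, stood at 9.91 and 9.91 (clone 1), 9.89 and 10.17 (clone 5), 10.07 and 10.33 (V3), and 10.73 (V1). Its clone 5 b array lay with V3 and its a array with clone 1, for a difference of -0.44 (SE 0.17, limma adjusted p = 0.362). AURKB, the kinase of the complex, read 7.86 and 7.95 in clone 1, 8.08 and 8.21 in clone 5, 7.91 and 8.05 in V3, and 8.84 in V1. For AURKB, V1 alone stood apart; its arm difference of -0.29 (SE 0.22) became 0.04 without that array.

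The 5 cytokinesis genes had a median arm difference of -0.37, with 0 called. KIF20A, a kinesin of the central spindle, had clone 1 values of 8.05 and 8.02, clone 5 values of 8.89 and 8.85, V3 values of 8.55 and 8.77, and 9.47 in V1. Clone 5 lay above V3 and clone 1 far below it, so the 2 S100P clones stood on opposite sides of V3 (arm difference -0.52, SE 0.30, limma adjusted p = 0.576). KIF23, the kinesin of the centralspindlin complex, stood at 8.81 and 8.70 (clone 1), 9.11 and 8.92 (clone 5), 8.90 and 9.00 (V3), and 9.77 (V1). Clone 5 and V3 overlapped, and the difference was -0.38 (SE 0.22, limma adjusted p = 0.577). ECT2, the exchange factor that activates RhoA at the cleavage furrow, read 9.33 and 9.25 in clone 1, 9.39 and 9.27 in clone 5, 9.37 and 9.44 in V3, and 9.85 in V1. In ECT2 the S100P clones overlapped and V1 stood apart (difference -0.27, SE 0.13). ANLN, the furrow scaffold anillin, showed that form most clearly: 6 arrays lay between 10.39 and 10.55 and V1 at 11.37, for an arm difference of -0.35 (SE 0.22). PRC1 differed by -0.37.

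Of the 3 genes of anaphase and exit, 0 were called between arms. CDC20, the activator of the anaphase-promoting complex, had clone 1 values of 10.12 and 10.16, clone 5 values of 10.65 and 10.61, V3 values of 10.47 and 10.66, and 11.44 in V1 (difference -0.52, SE 0.25, limma adjusted p = 0.48). PTTG1, which encodes securin, the inhibitor of separase, stood at 11.57 and 11.58 (clone 1), 12.01 and 12.01 (clone 5), 12.04 and 12.23 (V3), and 12.54 (V1). Securin arrays did not overlap between arms, and the difference was -0.50 (SE 0.17, limma adjusted p = 0.278). UBE2C, the ubiquitin-conjugating enzyme used by the complex, read 10.70 and 10.76 in clone 1, 10.83 and 11.06 in clone 5, 10.80 and 10.95 in V3, and 11.34 in V1. Its clone 5 and V3 arrays interleaved, for a difference of -0.22 (SE 0.16).

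MKI67, the proliferation antigen that coats mitotic chromosomes, had clone 1 values of 9.09 and 9.18, clone 5 values of 9.66 and 9.69, V3 values of 9.44 and 9.70, and 10.57 in V1. It followed the shared pattern, with an arm difference of -0.56 (SE 0.28, limma adjusted p = 0.509). TOP2A, the topoisomerase that untangles sister chromatids, stood at 9.91 and 10.16 (clone 1), 10.92 and 10.77 (clone 5), 10.67 and 10.61 (V3), and 10.72 (V1). On this probe set clone 1 was low and the other clones were close together, with clone 5 rather than V1 on top, and the arm difference was -0.23 (SE 0.23).

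**Figure D3:**
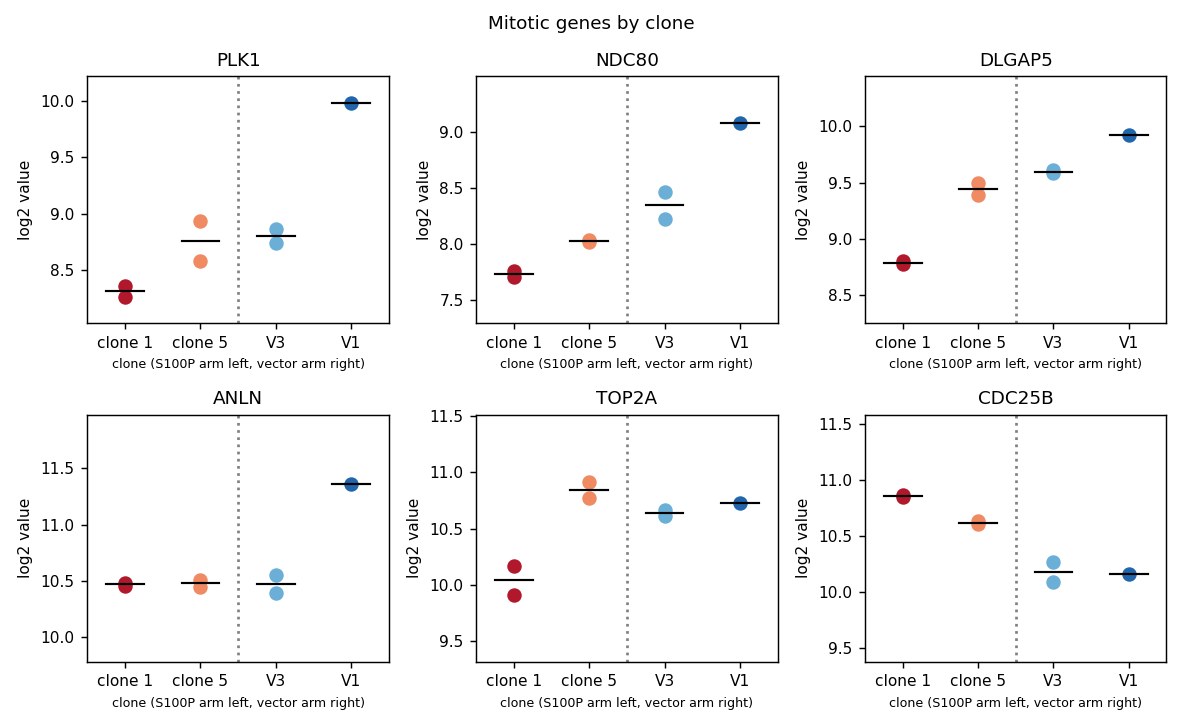
Log2 value on each array (points) and clone mean (bars; V1 has 1 array) for 6 mitotic genes, in panels whose y axes each span 2.2 log2 units, with the S100P clones left of the dotted line. PLK1 and ANLN set V1 apart, and DLGAP5 and TOP2A (main probe set) set clone 1 apart. NDC80 steps from clone to clone, and CDC25B is higher on the S100P arrays.

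To describe where each clone stood, the 4 clones were compared in pairs in 1 limma fit whose error is the spread between the a and b arrays, and V1, with 1 array, is assumed to vary like the rest. These tests compare these lines and not the conditions. The fit has 3 residual degrees of freedom before limma's moderation. Its calls were fragile: leaving out single arrays, also ones of clones not in the comparison, moved the counts as given beside each.

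Between the S100P clones, clone 5 was higher than clone 1 in 8 members and lower in 0, against 0.673% of all genes called higher (0.993% of those with a signal at least that of the lowest member). The 8 were CCNA2, CCNB1, FOXM1, HMMR, DLGAP5, CDCA8, KIF20A and TOP2A. KIF20A differed most, by 0.84 (SE 0.10, 1.79-fold, limma adjusted p = 0.0128). TOP2A followed at 0.81 (1.75-fold) on its main probe set, and HMMR at 0.70 (1.63-fold). The median over the 40 members was 0.31, against 0.02 over all genes, and 39 differences were above 0. ANLN (0.01), BUB3 (0.03) and ECT2 (0.04) were nearest 0. With any 1 array of clone 1, clone 5 or V3 left out, limma called 0 of the 40. V1, a clone of 1 array, adds nothing to the estimate of spread, so leaving it out does not alter this comparison. It was left out only in the fit with the a and b letters as a replicate block, given below.

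Between the vector clones, V1 was higher than V3 in 23 members and lower in 0, against 2.64% of all genes called higher (4.63% of those with the higher signal). PLK1 differed most, by 1.19 (SE 0.16, 2.28-fold, limma adjusted p = 0.0101), then CCNA2 by 1.03 (2.04-fold) and MKI67 by 1.00. The median was 0.64, against 0.02 over all genes. By role, the calls took 8 of 10 entry genes, 4 of 5 cytokinesis genes, 3 of 5 kinetochore genes and 2 of 7 spindle genes. They also took 2 of 3 chromosomal passenger genes, 2 of 5 checkpoint genes and 1 of 3 genes of anaphase and exit. Of the 2 remaining members, MKI67 and TOP2A, 1 was called (MKI67). These groups are small. Leaving out 1 array left 7 calls (without 5a or 5b) or 0 (without 1a, 1b, V3a or V3b), with medians of 0.56 to 0.73.

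The 2 comparisons within an arm shared no array, and different members led them. CCNA2, CCNB1, FOXM1, CDCA8 and KIF20A (5 members) were called in both. HMMR, DLGAP5 and TOP2A (3 members) were called between the S100P clones alone, 18 members between the vector clones alone, and 14 in neither. The class of TOP2A depended on the probe set. On its second probe set it differed by 0.12 between the S100P clones (not called) and by 0.77 between the vector clones (called). Over the 40 members the differences correlated at r = 0.10 (Spearman's rho = 0.07), against r = 0.24 over the 5739 genes of like signal. Those genes lay on both sides of 0, while 39 of the 40 members lay above 0 in each comparison. The r does not measure that shared direction. Without CDC25B the differences of the members correlated at r = -0.07 (rho = 0.00). The points share the arrays and the estimate of spread, and the figures are a description. HMMR and DLGAP5 differed by 0.70 and 0.66 between the S100P clones and by 0.26 and 0.32 between the vector clones. ANLN differed by 0.01 and by 0.90, and KIF11, whose arm values did not overlap, by 0.12 and by 0.77. Whether a gene's 2 differences differ from each other was not tested.

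**Figure D4:**
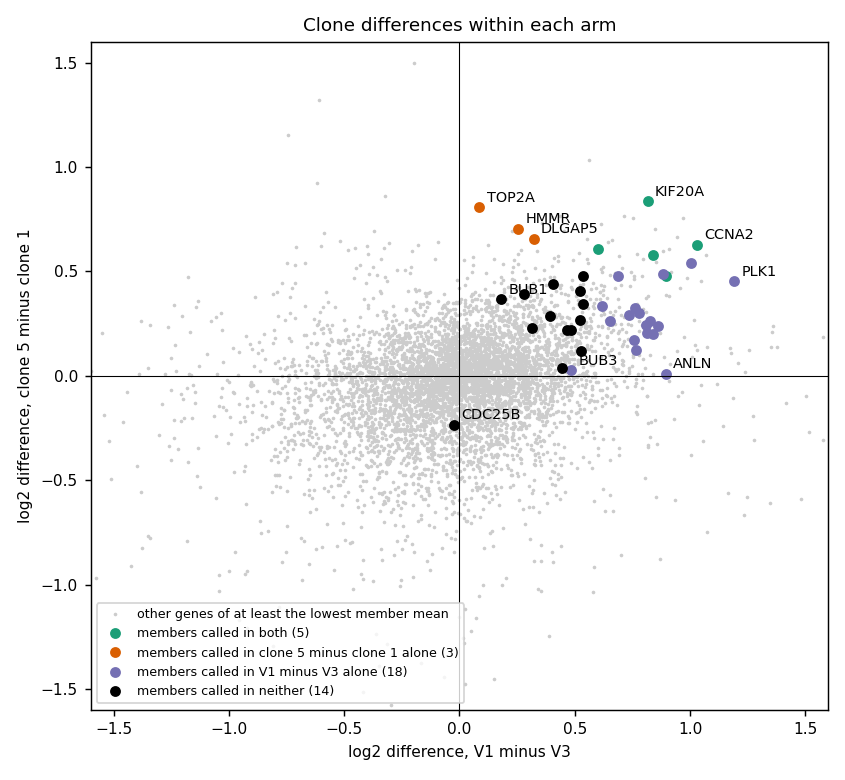
Log2 difference V1 minus V3 (x axis) against clone 5 minus clone 1 (y axis) for the 40 mitotic genes (large points, coloured by where they passed an adjusted p of 0.05) over the other genes whose mean is at least that of the lowest member (grey; a few lie outside the axes). The members fill the upper right of the plot, above 0 on both axes, apart from CDC25B. TOP2A (main probe set) lies high on the y axis and PLK1 far along the x axis.

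Against V3, clone 1 was lower in 13 members and higher in CDC25B, while clone 5 was not called different in any. For clone 1 the background was 3.23% of all genes lower and 6.65% higher. The 13 were CCNB1, AURKA, BUB1, BUB1B, MAD2L1, NDC80, HMMR, DLGAP5, CDCA8, KIF20A, CDC20, PTTG1 and TOP2A, and DLGAP5 was the lowest by -0.81 (SE 0.09, 1.75-fold lower, limma adjusted p = 0.0025). CDC25B was higher by 0.67 (SE 0.10, 1.59-fold, limma adjusted p = 0.00702). The median was -0.32, and leaving out single arrays gave 0 calls (without 1a or 1b) to 5 (without 5a or 5b), with 4 without V3a and 2 without V3b.

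For clone 5 against V3, limma called 0 of 40 members, where 4.86% of all genes were called in either direction. At an unadjusted p under 0.05 there were 5 of the 40, where 18.2% of all genes were under it, so the members did not exceed the background by either count. The differences ran from -0.32 (NDC80) to 0.44 (CDC25B), with a median of 0.05, and 36 of the 40 were within 0.25 of 0. For a single gene the SE was 0.09 to 0.15, and differences near that size could not pass the test. CDC25B came closest at 0.44 (SE 0.10, limma adjusted p = 0.0552) and passed with genes of mean under 6 left out (0.0106). The b array of V3 read above its a array in 38 of the 40 members, by a median of 0.13, and in 91.5% of genes of like signal, so the level of V3 carries that gap.

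Against V1, clone 1 was lower in 39 members and higher in CDC25B, and clone 5 was lower in 28. The background was 6.44% of all genes lower and 11.7% higher for clone 1, and 3.92% lower for clone 5. The medians were -0.93 and -0.59. PLK1 was the lowest in both, by -1.68 in clone 1 (SE 0.16, 3.21-fold lower, limma adjusted p = 0.00109) and by -1.23 in clone 5 (SE 0.16, 2.35-fold lower, limma adjusted p = 0.00615). The 12 members not called in clone 5 included CDC25B, at 0.46, and TOP2A, at 0.12, and the other 10 were below 0. Without 1a the clone 1 count was 12 and without 1b it was 13. The clone 5 count was 0 without 1a, 1b or 5a, 3 without 5b and 15 without V3a or V3b. Both sets of values use the same V1 array and share it with each other.

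Of 81 probe sets for the 40 genes, 41 were not used above; they belong to 21 genes, and 16 of them had a mean under 6. Of the 25 with a mean of 6 or more, 22 had an arm difference of the same sign as the main probe set, 20 for clone 5 minus clone 1 and 24 for V1 minus V3. The 3 further probe sets of MKI67 gave arm differences of -0.72 to -0.59 and V1 minus V3 differences of 0.72 to 0.92, and the second for ANLN gave 0.00 between the S100P clones and 0.98 between the vector clones, close to the first.

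TOP2A and BUB3 depended on the probe set. The second for TOP2A read 9.75 and 9.60 in clone 1, 9.66 and 9.92 in clone 5, 9.86 and 9.99 in V3, and 10.70 in V1. There V1 stood apart, at 0.77 above V3, and clone 5 exceeded clone 1 by 0.12, where the first probe set gave 0.09 and 0.81. For BUB3 the 3 further probe sets of high signal gave arm differences of -0.03 to 0.04 and V1 minus V3 differences of 0.15 to 0.32, below the 0.48 of the main one. For BIRC5, 1 of 3 further probe sets ran against the others, at -0.32 for V1 minus V3 (SE 0.27). On that set the V3 arrays were far apart, at 7.59 and 8.27, with V1 at 7.61. The second probe set of CCNB2 had a mean of 4.57, at the level of the array medians, against 10.27 for the main one. It gave 0.06 between the arms, against -0.40, and -0.02 for clone 5 minus clone 1, against 0.41. CDC25B had no second probe set.

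Other genes of cell division, from lists beyond the members, are given by counts. Of 26 other kinetochore and centromere genes, 25 were below 0 between the arms (median -0.30), and ZW10, a checkpoint protein that brings dynein to kinetochores, was the 1 gene called. It had clone 1 values of 8.28 and 8.13, clone 5 values of 8.59 and 8.37, V3 values of 9.18 and 9.08, and 9.27 in V1 (difference -0.84, SE 0.13, limma adjusted p = 0.025), with both S100P clones below both vector clones. Of 23 other spindle, centrosome and cytokinesis genes, 22 were below 0 (median -0.34), of 20 cohesin, condensin and separase genes 17 (median -0.28), and of 20 other mitotic regulators 18 (median -0.28), with 0 called in each. SPAG5 (-0.66) and ASPM (-0.66), both at spindle poles, SGO2 (-0.79), a protector of centromeric cohesin, and NCAPD3 (-0.77), a condensin subunit, had the largest differences, as did CDC25A (-0.84), the third CDC25 phosphatase, and SHCBP1 (-0.77).

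Subunits and regulators of the anaphase-promoting complex did not share the pattern of the members. Of 16, 10 were below 0 between arms with a median of -0.04, and V1 minus V3 had a median of 0.11 with 1 called higher, UBE2S. UBE2S, which extends ubiquitin chains for the complex, had the arm difference of largest size in that list (-0.70), followed by ANAPC15 (-0.33). A list of 15 genes held subunits of the DREAM and MuvB complexes, which bind promoters of such genes, and the 3 subunits of NF-Y. Its median arm difference was 0.02. NFYC (-0.47), a subunit of the CCAAT-binding NF-Y, and LIN9 (-0.41) had the largest arm differences, and neither was called. LIN9 read only 3.85 to 4.80, around the array medians. In V1 minus V3, 1 gene was called higher (MYBL2, which encodes B-MYB) and 1 lower (RBL2, which encodes the p130 repressor). The other 13 were not called. MYBL2 was also called higher in clone 5 than in V3 (limma adjusted p = 0.0148).

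The 39 DNA replication and G1/S genes had array medians close to those of the mitotic genes. All 39 were below 0 between arms (median -0.46, 0 called), with CDC6 (-0.86), a replication licensing factor, at the largest size. In V1 minus V3, 25 were called higher, against 2.64% of all genes, and in clone 5 minus clone 1, 6, against 0.673%. CDC25A, called in both, is also counted among the other mitotic regulators. The array medians of the replication list were -0.30 and -0.34 in clone 1, -0.00 and 0.01 in clone 5, -0.06 and 0.07 in V3, and 0.71 in V1, next to the members' values above.

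**Figure D5:**
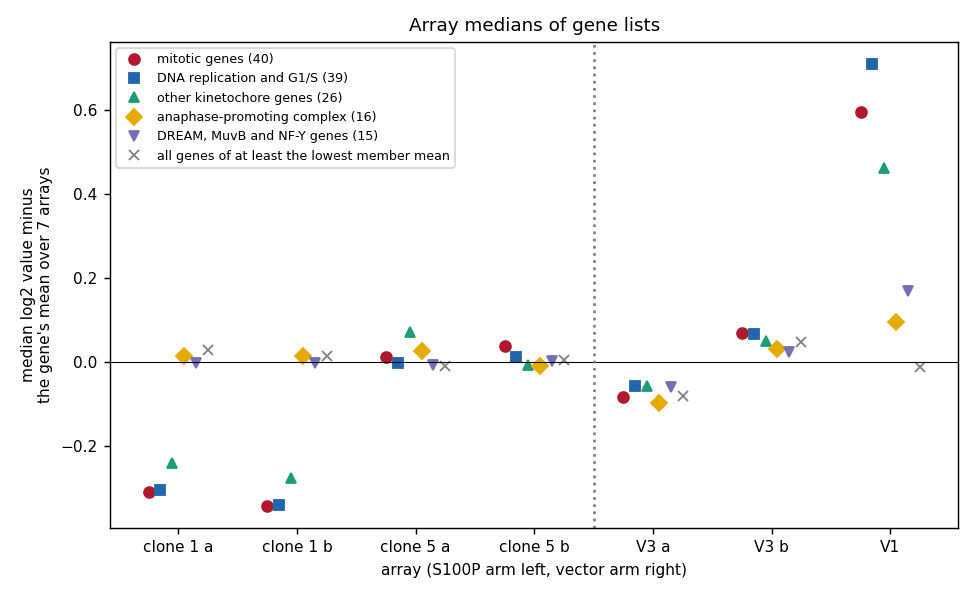
Median over each gene list of the log2 value minus the gene's mean over 7 arrays, by array, for the 40 mitotic genes and 4 other lists, with all genes of a mean at least that of the lowest member as crosses. The mitotic, replication and kinetochore lists lie below 0 on clone 1 and high on V1, up to 0.71, while the anaphase-promoting complex and DREAM, MuvB and NF-Y lists stay within 0.2 of 0.

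Of the 40 members, 77.5% correlated with the members' mean at r above 0.9. They were part of that mean and were not filtered by SD. Among the 2146 genes outside the list whose SD over the arrays was at least the median SD of the members (0.34), 6.29% did. The 8 closest, over 7 arrays, were CA8 (r = 0.996), KHSRP (0.995), TYMS (0.993), TRIP13 (0.992), OIP5 (0.992), LRR1 (0.991), HAUS7 (0.991) and MCM4 (0.990). TYMS and MCM4 belong to the replication list, OIP5 to the kinetochore list. The 5 most opposed were TMCC1 (-0.993), TBC1D19 (-0.990), DHX40 (-0.990), CCPG1 (-0.990) and LMCD1 (-0.987). These genes were not filtered by signal, and TBC1D19 (3.20 to 4.33) and CCPG1 (3.42 to 4.97) read low on all arrays. With 7 arrays of 4 clones, these values are a description only.

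Between clones, a measure of RNA quality ran opposite to the members. The log2 difference between the array's controls for the 3' and 5' ends of ACTB was 0.53 and 0.44 in clone 1, 0.29 and 0.27 in clone 5, 0.28 and 0.32 in V3, and 0.18 in V1. By clone it was highest where the mitotic genes were lowest and lowest where they were highest. Between the arrays of clone 1 and of V3 it ran the same way as the median member, and in clone 5 the opposite way. For GAPDH it was 0.08 and 0.08 in clone 1, 0.07 and 0.06 in clone 5, 0.09 and 0.14 in V3, and 0.01 in V1. There V3 rather than clone 1 was highest, while V1 was again lowest. The part of RNA quality in the differences was not tested.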

How the data were processed

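RNA of the Panc1 clones was hybridised to 7 Affymetrix HG-U133 Plus 2.0 arrays. The authors deposited log2 values made with RMA, per the submitters' processing notes; its settings and version were not given in the sources used here. The values were used as deposited. Of 54675 rows, 62 controls were left out and 54613 probe sets were tested; 41091 had 1 symbol, 1801 several and 11721 none. Every gene was read through its probe set of highest mean.

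Arms were compared with limma 3.58.1 (R 4.3.3; lmFit and eBayes, two-sided) taking clones as random blocks (duplicateCorrelation, consensus correlation 0.287), and clones in a fit with the 4 clones as fixed effects. P-values were adjusted by Benjamini-Hochberg over all tested probe sets, and an adjusted p under 0.05 was a call. The scripts were tested on simulated data. Arrays give no read depth, and their number limits the precision.

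Members, roles and all lists (kinetochore, spindle, cohesin, anaphase-promoting complex, DREAM with MuvB and NF-Y, other regulators, replication, cell type markers) were chosen with earlier results of these data known, so no pattern here is independent support. Genes named in full were the 2 members of largest and the 1 of smallest arm difference in each role, with CDC25B added; other lists gave their called genes, or else the 2 of largest difference. Alternatives changed the probe set, block, normalization, filter, clones and arrays used.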

Additional observations from a re-analysis of the deposited data

Results flagged for a closer look

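In the S100P arm, each of the 40 members was examined for a single array far from the other 3, and 3 were found. Chance marks about 1 in 20 groups of independent values. These arrays come in pairs from clones, so that rate does not hold here. BUB3 on the clone 1 a array was the lowest, at 11.27 against 11.33 on the other arrays, a gap of 0.05 log2 units among values that were otherwise identical. CENPE on the clone 5 a array was the highest, at 8.80 against 8.32 to 8.37. BIRC5 on the clone 5 b array was the highest, at 10.17 against 9.89 to 9.91; without that array, BIRC5 in clone 5 was at the level of clone 1. The vector arm, with 3 arrays, was not examined in this way.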

How the results depend on the processing

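Between arms, 0 members were called in the reported fit, with clone means as samples, with genes of mean under 6 left out, with array medians set equal and with the second probe set of 21 genes. The count was 1 without the clone block, after repeated quantile normalization and without V1 (CDC25B each time), 6 without V3 and 5 without clone 5. The median of -0.41 became -0.75 without V3, -0.11 without clone 1 and -0.17 without V1. Arm differences that changed sign on the second probe set were CCNB2 (0.062, on a set of mean 4.57, here and below), BUB3 (0.036) and CENPF (0.030). Without V1, 7 members did: CDK1 (0.19), TPX2 (0.068) and AURKB (0.044), from -0.25, -0.23 and -0.42 at the other end of the range over arrays left out, and CDC25C (0.042), CENPA (0.032), FOXM1 (0.0072) and ANLN (0.0020). The same 7 positive values came with the a and b letters as a replicate block, which leaves V1 out and called 0 members. The letters share only a name: b minus a correlated at 0.05, -0.10 and 0.08 between clones over all genes. Without clone 1, CDK1 (0.13), CENPF (0.016), TPX2 (0.12), KIF20A (0.032), TOP2A (0.19), CCNA2 (0.074), FOXM1 (0.045) and NUSAP1 (0.017) changed sign.

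For clone 5 minus clone 1, the count of 8 became 5 on the second probe set, 18 with genes of mean under 6 left out, 15 after quantile normalization and 7 with the replicate block. The median of 0.31 became 0.39, 0.27 (array medians set equal) and 0.35 (quantile). Signs changed for BUB3 (-0.018), ECT2 (-0.091), CCNB2 (-0.020) and CDC25C (-0.015) on the second probe set, BUB3 (-0.015), ECT2 (-0.0054) and ANLN (-0.033) with medians set equal, and, leaving out 1 array, ECT2 and ANLN without 1b (-0.0027 and -0.0013) and 5a (-0.025 and -0.021; ECT2 up to 0.099 without others) and BIRC5 without 5b (-0.021; up to 0.26). For V1 minus V3, 23 became 13 on the second probe set; medians were 0.71, 0.59 and 0.59, and CDC25B changed sign without V3b (0.065). For clone 1 minus V3, 14 became 7 (second) and 22 (filter), with medians of -0.25 (second) and -0.38 (quantile). For clone 5 minus V3, 0 became 1 on the second probe set (KIF23), with the filter and after quantile normalization (CDC25B), and the median 0.05 became -0.015 with medians set equal. Against V1, on the second probe set, the counts of 40 and 28 became 18 and 11, with medians of -1.05 and -0.63.

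Leaving out 1 array other than V1 gave counts of 0 (clone 5 minus clone 1), 0 to 7 (V1 minus V3), 0 to 5 (clone 1 minus V3), 12 to 38 (clone 1 minus V1) and 0 to 15 (clone 5 minus V1). It gave medians of 0.56 to 0.73 (V1 minus V3), -0.39 to -0.28 (clone 1 minus V3) and -0.039 to 0.11 (clone 5 minus V3). These fits keep 2 residual degrees of freedom instead of 3; beyond that the cause was not tested. The second probe set covers fewer genes.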
